A study of Homo sapiens with 9 samples.

Results

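The genes described here encode the mitochondrial ribosomal proteins, taken as every probe annotated to a symbol that starts with MRPL or MRPS and a number, with pseudogenes left out. The rule gave 76 genes of the 18850 with a symbol on the array, 48 with MRPL names (large subunit) and 28 with MRPS names (small subunit), carried by 110 of 48799 probes. The mitochondrial ribosome is the machine inside the organelle that translates the few messages of the mitochondrial genome, all of which encode subunits of the respiratory chain and the ATP synthase. Its RNA comes from that genome, but every one of its proteins is encoded in the nucleus, made in the cytosol and imported. Part of these proteins descend from bacterial ribosomal proteins, and the rest were added in the mitochondrion and have no bacterial counterpart.

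Total RNA came from MDA-MB-231, an established human breast cancer line, harvested 72 h after transfection of small interfering RNAs (siRNAs). In the KD1 group the cells had received siRNA 1 against KDM5A, in KD2 siRNA 2 against the same gene, and in the control an siRNA against luciferase, a gene that human cells lack (Luc), with 3 arrays per group and 9 in all. KDM5A, also called RBP2, is a histone demethylase that strips lysine 4 of H3 of its methyl groups. The study as titled concerns its part in breast cancer progression and metastasis, and the comparisons ask which transcripts differ when it is targeted. All groups share 1 cell line, and nothing in the labels says that arrays of a group came from separate cultures, so the p-values measure the spread between these arrays only. The level of KDM5A was not analysed here, and how far each siRNA lowered it is therefore not part of the comparisons.

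Probes detected per array numbered 14529 to 15110 on the KD1 arrays, 15370 to 15777 on the KD2 arrays and 15679 to 17538 on the Luc arrays. Pearson correlations over the 13076 tested features, meaning genes or unnamed probes detected on at least 3 arrays, were 0.986 to 0.989 inside a group and 0.963 to 0.975 across groups. The KD1 arrays lay at slide positions G, I and K and the others at A to F, so position on the slide and KD1 cannot be told apart. Of 6 genes known to be high in this line, VIM, CD44, CAV1, AXL and MSN were detected on all 9 arrays and SPARC on 0. Of 6 luminal or epithelial genes listed as low in it, ESR1, PGR and FOXA1 were detected on 0 arrays, CDH1 on 2, GATA3 on 4 and, against the list, EPCAM on all 9. Of 4 leukocyte markers only CD14 was detected on 3 arrays or more, with a log2 change of -1.15 with KD1 and -0.32 with KD2, and of 5 fibroblast markers only PDGFRA, on all 9 arrays, with -0.63 with KD2 (adjusted p = 0.0981) and 0.79 in KD1 against KD2 (adjusted p = 0.0399), while COL3A1 and LUM were detected on 0. The part of CD14 and PDGFRA in any result was not tested. A lower value in such a bulk sample can mean less of a transcript per cell or fewer cells that carry it, which cannot be told apart.

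All 76 genes were tested, and 74 were detected on all 9 arrays. The exceptions were MRPL19 on 7 arrays and MRPS14 on 8. Over all tested features 72.1% were detected on every array. Replicate arrays lay closer together for these genes, with a median residual SD of 0.16 on the log2 scale, against 0.22 over all tested features. The 95% interval of a gene's log2 fold change reached 0.32 to either side in the median gene, and from 0.25 to 0.73 across the 76 genes. Intensities are given as normalized log2 values of the brightest probe of a gene, and since probes differ in brightness a level is set only against the same gene in other groups.

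Most mitochondrial ribosomal protein transcripts did not pass the test in any comparison, and those that did went in both directions. With KD1, 5 of the 76 genes passed an adjusted p of 0.05 in limma (6.58%), 2 higher and 3 lower than in Luc, where 16.5% of all tested features passed. With KD2, 10 of 76 passed against Luc (13.2%), 5 higher and 5 lower, where 22.4% of all features passed. Between the siRNAs, 12 of 76 passed (15.8%), 8 higher and 4 lower in KD1 than in KD2, where 27.4% of all features passed. The share called was below that of all features in each comparison, a difference that was not tested and that depends on the processing. With the deposited normalized values in place of the background-corrected ones, 13 members (17.1%) were called with KD1, 24 (31.6%) with KD2 and 25 (32.9%) in KD1 against KD2, where 21.7%, 28.4% and 30.8% of all features were. With each array scaled to the median of all its probes, the KD1 calls were 1 higher and 10 lower, and the median change of all features moved to -0.17. Of all features 20.8% were then called with KD1, 428 higher and 2291 lower, so this lean was not particular to the members. With single arrays left out, the KD1 count was 3 without KD1 replicate 1 or 2, 1 without KD1 replicate 3 and 2 without any 1 Luc array. The share of all features called with KD1 also fell without these arrays, to between 10.6% and 13.8%. The KD2 count was 6 without KD2 replicate 3 or Luc replicate 3, where 17.3% and 18.4% of all features were called. That of KD1 against KD2 was 7 without KD1 replicate 3 and 6 without KD2 replicate 2, where 21.6% and 21.3% were. In total 19 genes were called in at least 1 comparison, 14 MRPL and 5 MRPS, and 57 in none. The matching count over all features was not made, so these totals do not set the members apart from other genes.

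The changes were also small. The median absolute log2 fold change of the 76 genes was 0.16 for KD1 against Luc, 0.26 for KD2 against Luc and 0.24 for KD1 against KD2, against 0.25, 0.28 and 0.30 over all features. A change of at least 0.5 on the log2 scale was seen in 5 of the 76 genes with KD1, 8 with KD2 and 9 in KD1 against KD2, where 21%, 25.4% and 28.5% of all features reached it. The 2-fold mark was reached by no member with KD1, by MRPL9 and MRPS9 with KD2, and by MRPL9 between the siRNAs. At an unadjusted p under 0.05 in limma, the 1 tool run, stood 14 members with KD1 (18.4%), 24 with KD2 (31.6%) and 23 in KD1 against KD2 (30.3%), where 31%, 35.6% and 38.5% of all features did.

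**Figure D1:**
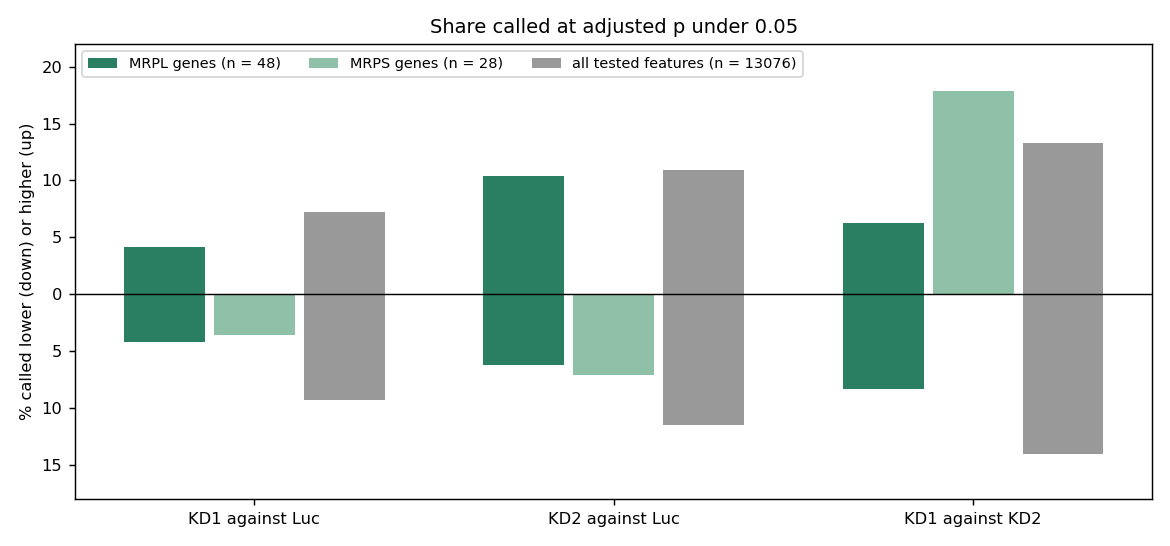
Share of genes called at an adjusted p under 0.05 in each comparison, in percent, with genes called higher drawn upward and genes called lower drawn downward, for the 48 MRPL genes, the 28 MRPS genes and all 13076 tested features. No MRPS gene was called higher with KD1 or KD2 against Luc, and none was called lower in KD1 against KD2. The MRPS calls numbered 1 with KD1, 2 with KD2 and 5 in KD1 against KD2.

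**Figure D2:**
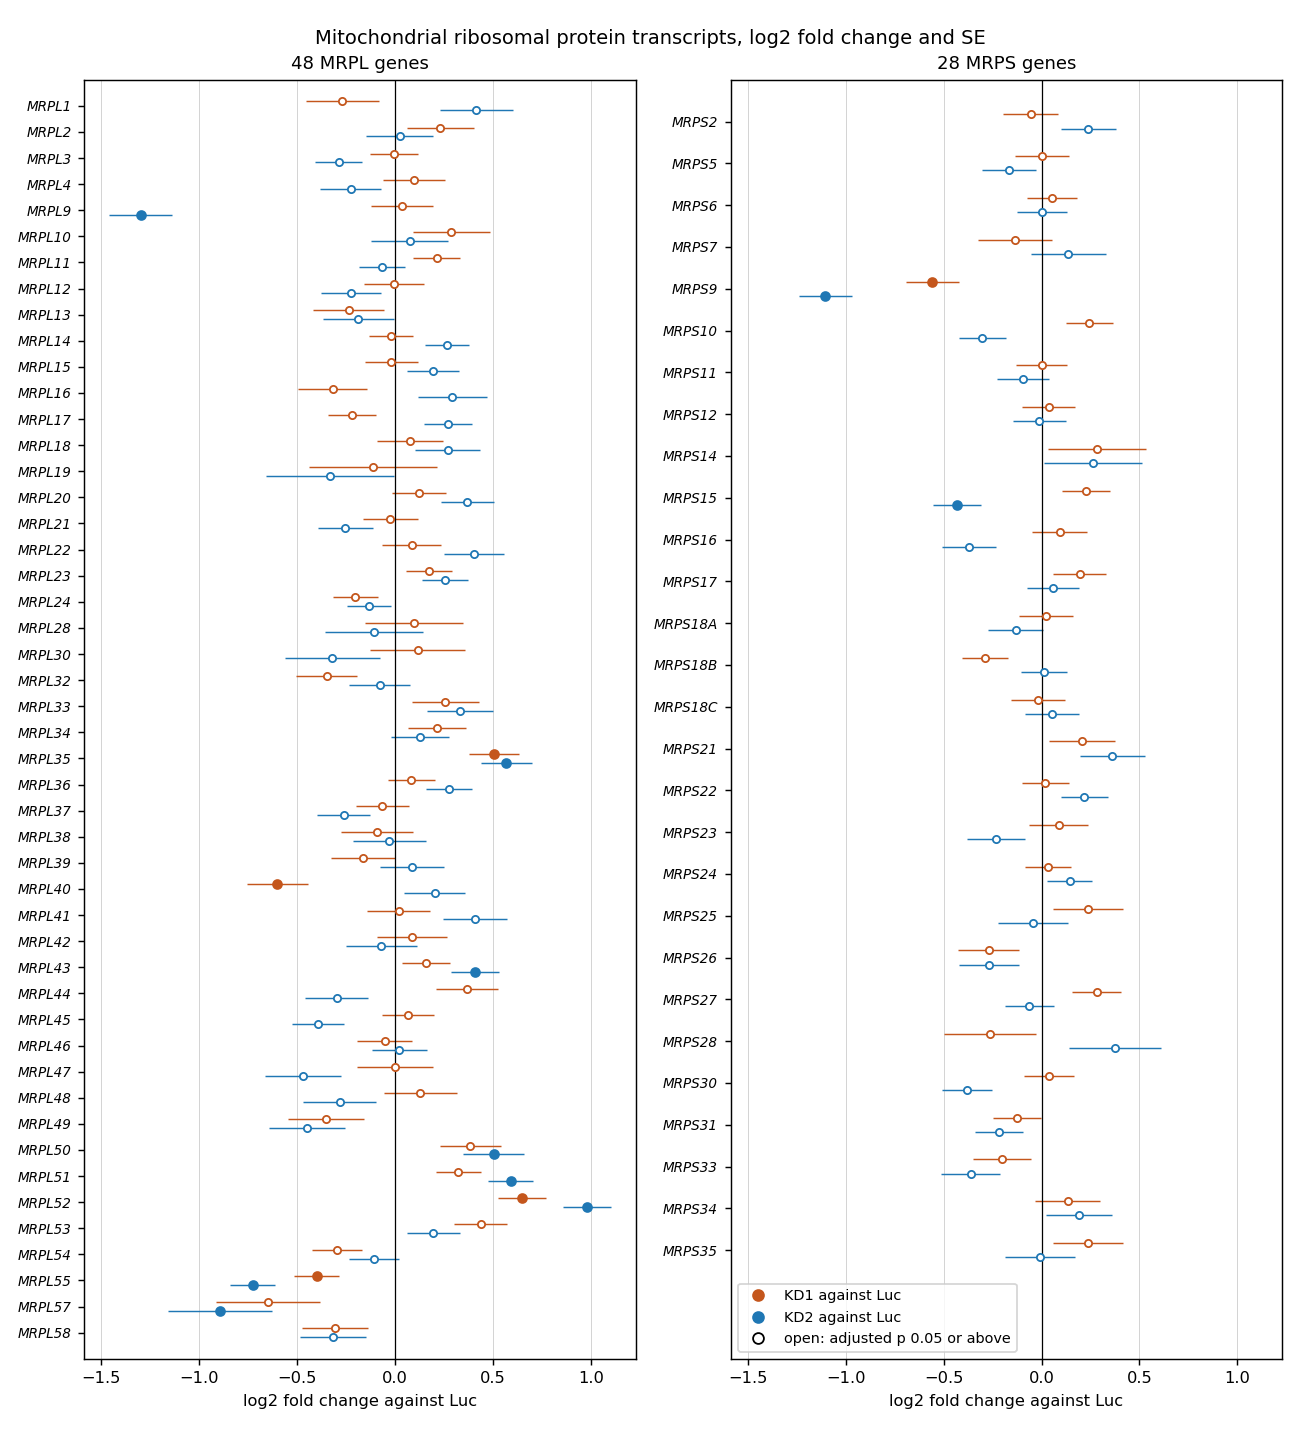
Log2 fold change against Luc of every mitochondrial ribosomal protein gene for KD1 (orange) and KD2 (blue), with bars of 1 SE and filled points for an adjusted p under 0.05. MRPL52 and MRPL35 lie to the right and MRPS9 and MRPL55 to the left for both siRNAs, and the lowest point is MRPL9 for KD2.

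Called on the same side of Luc with both siRNAs were 4 of the 76 genes, MRPL52 and MRPL35 higher, and MRPS9 and MRPL55 lower. Others lay on 1 side of Luc with both siRNAs without passing the test with both. Over all features 5.41% were called with both siRNAs on 1 side of Luc (2.77% higher and 2.65% lower), and 1.25% in opposite directions, which was true of no member. The siRNAs share the Luc arrays, so the calls are not independent of each other. The count of 4 became 2 without KD1 replicate 1 or 2 or Luc replicate 1 or 2, and 1 without KD1 replicate 3 or Luc replicate 3, where MRPL52 was the gene left. Of the 11 members called against Luc with either siRNA, 4 were called with both, 1 with KD1 and not KD2, and 6 with KD2 and not KD1. Over all 13076 features, too, more were called with KD2 (2927) than with KD1 (2157). With both siRNAs 708 were called in the same direction and 163 in opposite directions.

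The starts of MRPL52, MRPS9 and MRPL55 are shown because these genes were called with both siRNAs (sequences from RefSeq, GRCh38.p14). Each line gives the 250 bases before the first listed start of the gene, 5′ to 3′ on the gene's strand. Capitals mark letters AAGATGGC, which the factor YY1 binds. Members have 1 to 4 listed starts, and only the first was searched. MRPL52 lies at chr14:22829637-22829886 on the plus strand, MRPS9 at chr2:105037819-105038068 on the plus strand and MRPL55 at chr1:228109300-228109549 on the minus strand.
MRPL52: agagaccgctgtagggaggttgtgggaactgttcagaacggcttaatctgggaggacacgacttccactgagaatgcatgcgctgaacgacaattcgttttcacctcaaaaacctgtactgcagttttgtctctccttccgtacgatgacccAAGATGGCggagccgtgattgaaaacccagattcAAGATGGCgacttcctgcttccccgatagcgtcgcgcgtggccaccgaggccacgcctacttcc
MRPS9: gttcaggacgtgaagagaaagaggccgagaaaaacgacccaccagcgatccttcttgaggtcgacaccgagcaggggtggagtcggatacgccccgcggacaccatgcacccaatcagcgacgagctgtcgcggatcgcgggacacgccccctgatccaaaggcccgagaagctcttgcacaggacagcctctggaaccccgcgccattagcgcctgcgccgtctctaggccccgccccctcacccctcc
MRPL55: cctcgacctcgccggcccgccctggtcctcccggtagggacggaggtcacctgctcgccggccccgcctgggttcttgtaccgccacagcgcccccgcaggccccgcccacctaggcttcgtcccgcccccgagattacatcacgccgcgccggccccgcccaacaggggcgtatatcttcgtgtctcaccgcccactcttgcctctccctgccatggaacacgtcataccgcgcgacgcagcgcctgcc
The MRPL52 sequence held AAGATGGC at 98 and 64 bases before the start, and CCGGAAG, the core bound by ETS factors, ran across the start itself on the opposite strand, from 5 bases before it. No match to AAGATGGC, CCGGAAG or GCGCATGCG (the letters of an NRF1 site) was found on either strand for MRPS9 or MRPL55. Bases G and C made up 54.0% of the MRPL52 stretch, 64.8% of that of MRPS9 and 71.6% of that of MRPL55.

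MRPL52, a large-subunit protein without a bacterial counterpart, was the member highest above Luc with either siRNA. Its log2 intensity was 10.38, 10.23 and 10.14 on the KD1 arrays, 10.55, 10.56 and 10.64 on the KD2 arrays, and 9.64, 9.51 and 9.66 on the Luc arrays. Every KD1 and KD2 array lay above every Luc array, and the KD2 arrays lay above the KD1 arrays. The log2 fold change was 0.65 ± 0.12 (SE, n = 3 arrays per group; limma adjusted p = 0.0055) with KD1 and 0.98 ± 0.12 (adjusted p = 0.000469) with KD2. Between the siRNAs MRPL52 differed by -0.33 (adjusted p = 0.0665), which missed the threshold. Both calls against Luc held with any 1 array left out.

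MRPL35, the counterpart of bacterial bL35, was the other member higher with both. It had log2 intensities of 11.03, 11.20 and 11.05 in KD1, 11.30, 11.10 and 11.05 in KD2, and 10.71, 10.55 and 10.49 in Luc. The KD1 and KD2 arrays overlapped each other and all lay above the Luc arrays. The change was 0.51 ± 0.13 with KD1 (limma adjusted p = 0.0239) and 0.57 ± 0.13 with KD2 (adjusted p = 0.0105). The KD1 call was lost without KD1 replicate 2, KD1 replicate 3, Luc replicate 2 or Luc replicate 3, with an adjusted p of up to 0.0765, and the KD2 call held with any 1 array left out. The remaining 2 probes of MRPL35 were not called, at 0.05 and 0.06 with KD1 and 0.39 and 0.15 with KD2. With the mean of its detected probes MRPL35 stood at 0.20 with KD1 (adjusted p = 0.291) and 0.37 with KD2 (adjusted p = 0.0522), and neither was called. Median scaling over all probes also ended the KD1 call (0.32, adjusted p = 0.139).

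MRPS9, the counterpart of the bacterial small-subunit protein uS9, was the MRPS gene that fell furthest. It had log2 intensities of 10.24, 10.27 and 10.28 in KD1, 9.83, 9.84 and 9.49 in KD2, and 10.91, 10.69 and 10.87 in Luc. The 3 groups did not overlap, with Luc highest and KD2 lowest. The change was -0.56 ± 0.14 with KD1 (limma adjusted p = 0.019) and -1.10 ± 0.14 with KD2 (adjusted p = 0.000438), a 2.15-fold lower level in KD2 than in Luc. KD1 stood above KD2 by 0.55 (adjusted p = 0.013). The KD1 call against Luc was lost without KD1 replicate 1, KD1 replicate 3, Luc replicate 1 or Luc replicate 3, with an adjusted p of up to 0.0639, while the calls of KD2 against Luc and of KD1 against KD2 held with any 1 array left out.

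MRPL55 is a large-subunit protein placed among those related to bacterial bL31. It had log2 intensities of 9.71, 9.79 and 9.89 in KD1, 9.42, 9.49 and 9.50 in KD2, and 10.22, 10.23 and 10.14 in Luc. Again the 3 groups did not overlap, with Luc highest and KD2 lowest. The change was -0.40 ± 0.12 with KD1 (limma adjusted p = 0.0389) and -0.73 ± 0.12 with KD2 (adjusted p = 0.00176). The KD1 call was lost whichever of the 9 arrays was left out, with adjusted p between 0.0516 and 0.118, while the KD2 call held with any 1 array left out. The remaining 2 probes of MRPL55 were not called, at -0.06 and -0.03 with KD1 and -0.38 and -0.35 with KD2. With the mean of its detected probes MRPL55 stood at -0.17 with KD1 (adjusted p = 0.368) and -0.48 with KD2 (adjusted p = 0.0129). The KD1 call also ended under median scaling over the tested features, with no detection filter, with only KD1 and Luc in the fit and with a replicate block, at adjusted p from 0.061 to 0.093.

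MRPL40, a large-subunit protein of the mitochondria-specific kind, was called against Luc with KD1 and not with KD2. It had log2 intensities of 8.97, 8.81 and 8.81 in KD1, 9.92, 9.55 and 9.53 in KD2, and 9.66, 9.46 and 9.26 in Luc. All KD1 arrays lay below all others, and KD2 overlapped Luc. The change was -0.60 ± 0.15 with KD1 (limma adjusted p = 0.0254) and 0.20 ± 0.15 with KD2 (adjusted p = 0.391), and KD1 lay below KD2 by -0.80 (adjusted p = 0.00369). The difference between the siRNAs held with any 1 array left out. The KD1 call against Luc was lost without KD1 replicate 2, KD1 replicate 3, Luc replicate 1 or Luc replicate 2, with an adjusted p of up to 0.0883. Just outside the threshold with KD1 was MRPL53, at 0.44 (adjusted p = 0.0528), and MRPL57 had the furthest negative value that missed it, at -0.65 ± 0.27.

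With KD2 the lowest member was MRPL9, the counterpart of bacterial bL9, an elongated protein of the large subunit. It had log2 intensities of 9.45, 9.18 and 9.37 in KD1, 8.00, 8.22 and 7.78 in KD2, and 9.50, 9.10 and 9.29 in Luc. The KD2 arrays lay below all others by more than the spread within any group, and KD1 overlapped Luc. The change was -1.30 ± 0.16 with KD2 (limma adjusted p = 0.000464; 2.46-fold lower) and 0.04 ± 0.16 with KD1 (adjusted p = 0.914). KD1 stood above KD2 by 1.33 (adjusted p = 0.000246; 2.52-fold), and both calls held with any 1 array left out.

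Also lower with KD2 were MRPL57 and MRPS15. MRPL57, a small mitochondria-specific protein of the large subunit, had log2 intensities of 5.76, 6.67 and 6.51 in KD1, 5.61, 6.43 and 6.17 in KD2, and 7.13, 6.98 and 6.77 in Luc. The Luc arrays lay above all others, and replicate 1 was the lowest array in both KD1 and KD2. The change with KD2 was -0.89 ± 0.27 (limma adjusted p = 0.0351), and a second probe of the gene gave -0.98 (adjusted p = 0.0366). RefSeq names 8 pseudogenes of MRPL57, and 100 in all for 41 of the 76 genes, so some probes may also bind pseudogene transcripts. The call was lost without KD2 replicate 1, KD2 replicate 3 or any 1 Luc array, with an adjusted p of up to 0.115, and with no detection filter (adjusted p = 0.0739). The change of MRPL57 was -0.42 without background correction and -0.27 with the deposited values.

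MRPS15, the counterpart of bacterial uS15, which binds the small-subunit RNA early in bacterial assembly, had log2 intensities of 11.36, 11.24 and 11.52 in KD1, 10.78, 10.74 and 10.64 in KD2, and 11.20, 11.13 and 11.11 in Luc. The 3 groups did not overlap, with KD1 highest and KD2 lowest. The change was -0.43 ± 0.12 with KD2 (limma adjusted p = 0.0293) and 0.23 ± 0.12 with KD1 (adjusted p = 0.241), and KD1 stood above KD2 by 0.66 (adjusted p = 0.003). The KD2 call against Luc was lost when any 1 KD2 or Luc array was left out, with an adjusted p of up to 0.0901, and with no detection filter (0.0558) or median scaling over the tested features (0.0664), while the difference between the siRNAs held with any 1 array left out.

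Besides MRPL52 and MRPL35, 3 mitochondria-specific proteins of the large subunit were higher with KD2: MRPL51, MRPL50 and MRPL43. MRPL51 had log2 intensities of 11.54, 11.71 and 11.67 in KD1, 11.96, 11.85 and 11.91 in KD2, and 11.37, 11.30 and 11.28 in Luc. The 3 groups did not overlap, with KD2 highest and Luc lowest. Its change was 0.59 ± 0.12 with KD2 (limma adjusted p = 0.00507), which held with any 1 array left out, and 0.32 ± 0.12 with KD1 (adjusted p = 0.0823).

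MRPL50 had log2 intensities of 9.87, 9.87 and 9.83 in KD1, 9.94, 10.08 and 9.91 in KD2, and 9.73, 9.55 and 9.14 in Luc. The Luc arrays were the lowest and the most spread. Its change with KD2 was 0.51 ± 0.16 (limma adjusted p = 0.0415), which was lost without any 1 of the KD1 or KD2 arrays, Luc replicate 2 or Luc replicate 3, with an adjusted p of up to 0.122, and with median scaling over all probes, no detection filter or only KD2 and Luc in the fit (0.0696 to 0.0865). MRPL43 had log2 intensities of 10.57, 10.76 and 10.53 in KD1, 10.87, 10.83 and 10.91 in KD2, and 10.37, 10.58 and 10.44 in Luc. The KD2 arrays lay above all others and KD1 overlapped Luc. Its change with KD2 was 0.41 ± 0.12 (limma adjusted p = 0.0367), lost when any 1 KD2 or Luc array was left out, with an adjusted p of up to 0.106, and with median scaling over all probes, no detection filter, only KD2 and Luc in the fit or a replicate block (0.0508 to 0.0855). The remaining 2 probes of MRPL43 stood at -0.30 and -0.12 with KD2 and were not called, and with the mean of its detected probes the change was -0.004.

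**Figure D3:**
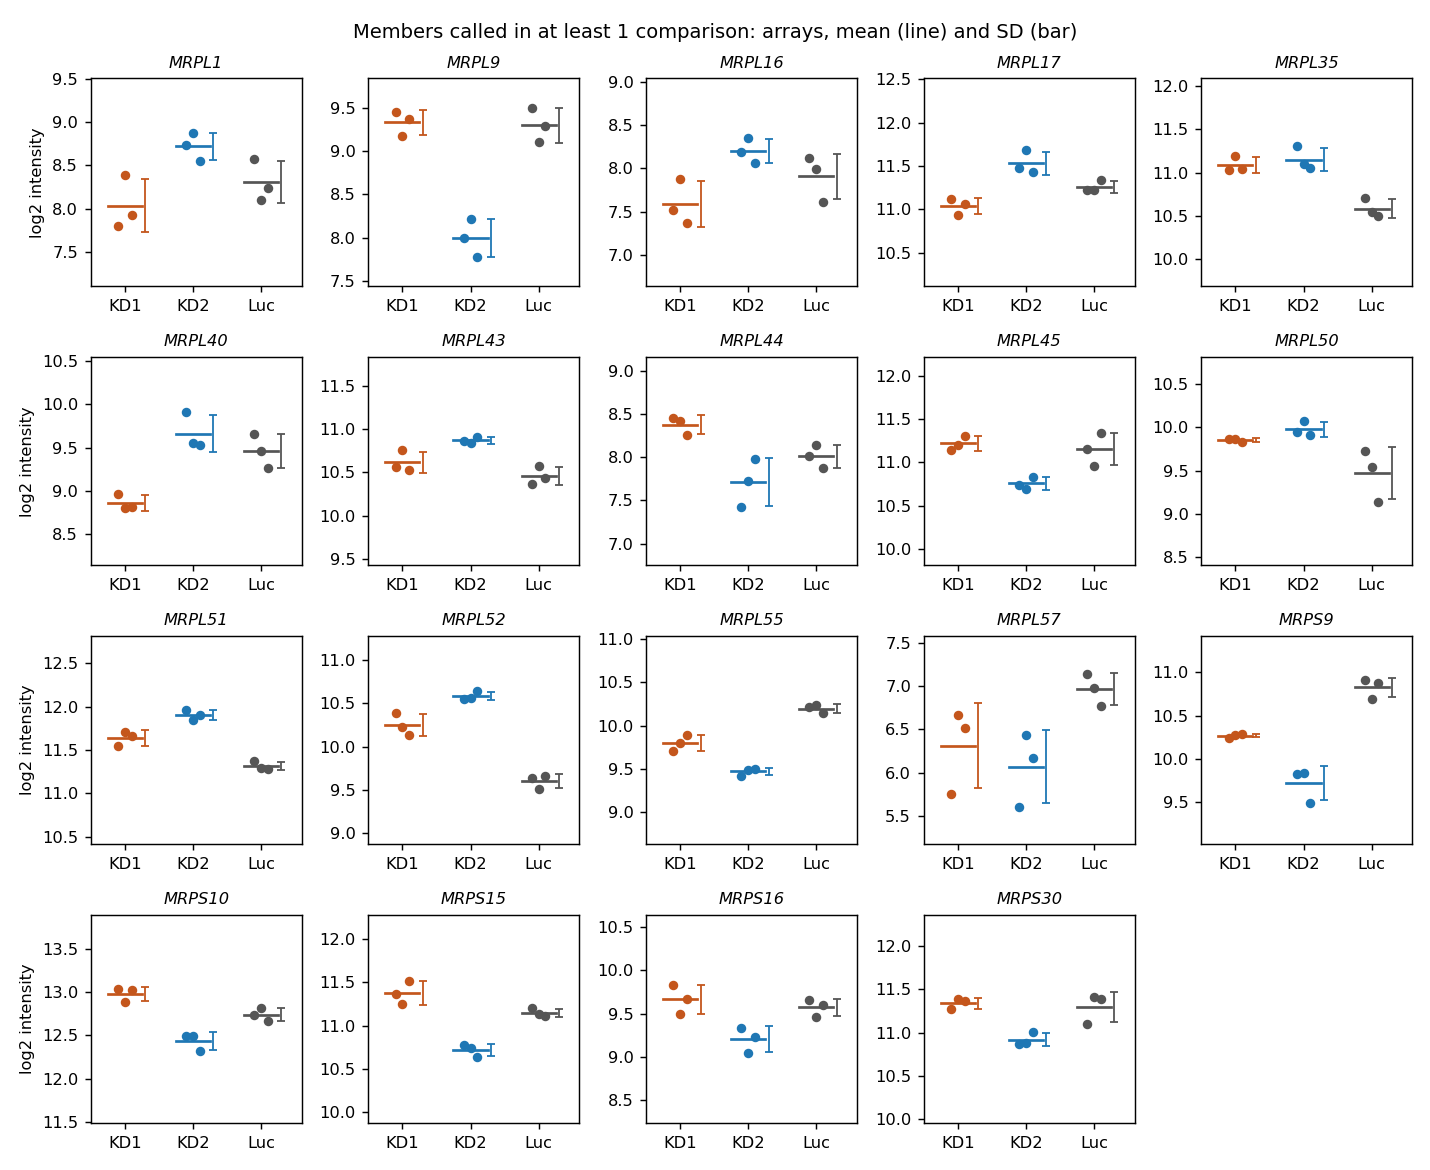
Normalized log2 intensity of the 19 members called in at least 1 comparison on the 3 KD1, 3 KD2 and 3 Luc arrays, each panel spanning the same height, with the group mean as a line and the SD as a bar. MRPL9 shows the KD2 arrays far below the others, and MRPS9 and MRPL55 show Luc highest and KD2 lowest with no overlap.

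In KD1 against KD2, 12 members were called. Among the 8 members higher in KD1 than in KD2 were MRPL9, MRPS15 and MRPS9, described above, together with MRPL44, MRPS10, MRPL45, MRPS16 and MRPS30. MRPL44, a large-subunit protein with an RNase III-like fold, had log2 intensities of 8.45, 8.42 and 8.25 in KD1, 7.42, 7.73 and 7.98 in KD2, and 8.01, 8.14 and 7.87 in Luc. The KD1 arrays lay above all others and KD2 overlapped Luc. KD1 stood above KD2 by 0.67 ± 0.16 (limma adjusted p = 0.0112). MRPS10, the counterpart of bacterial uS10, had log2 intensities of 13.03, 12.89 and 13.02 in KD1, 12.49, 12.50 and 12.31 in KD2, and 12.73, 12.82 and 12.67 in Luc. The 3 groups did not overlap, with KD1 highest and KD2 lowest. KD1 stood above KD2 by 0.55 ± 0.12 (limma adjusted p = 0.00758), and the calls of MRPL44 and MRPS10 held with any 1 array left out. With the deposited values the difference of MRPL44 was 0.38.

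MRPL45, which lies at the exit of the peptide tunnel and helps to hold the ribosome at the inner membrane, was higher in KD1 than in KD2 by 0.46, MRPS16, the counterpart of bacterial bS16, by 0.46, and MRPS30 by 0.42. In these 3 genes every KD1 array lay above every KD2 array, every KD2 array lay below every Luc array, and KD1 overlapped Luc. Despite its name MRPS30 sits in the large subunit of the human mitochondrial ribosome, as MRPS18A does. The call of MRPL45 was lost without KD1 replicate 2 or 3 or KD2 replicate 1 or 2 (adjusted p up to 0.0832), that of MRPS16 without KD1 replicate 1 or 3 or KD2 replicate 2 or 3 (up to 0.112), and that of MRPS30 without any 1 KD1 or KD2 array (up to 0.0954). All 3 calls were also lost with median scaling over all probes (0.0905 to 0.155) and with no detection filter (0.0526 to 0.0693), and that of MRPS16 with only KD1 and KD2 in the fit (0.0572).

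Lower in KD1 than in KD2 were MRPL40, given above, and the counterparts of bacterial uL1, uL16 and bL17. MRPL1, whose bacterial relative forms the mobile stalk beside the exit site for transfer RNA, had log2 intensities of 7.80, 8.38 and 7.92 in KD1, 8.74, 8.87 and 8.55 in KD2, and 8.57, 8.10 and 8.24 in Luc. MRPL16 had 7.52, 7.87 and 7.37 in KD1, 8.19, 8.35 and 8.06 in KD2, and 8.11, 7.99 and 7.61 in Luc. For both genes the KD1 arrays lay below the KD2 arrays, and each overlapped Luc. The differences between the siRNAs were -0.68 ± 0.19 for MRPL1 (limma adjusted p = 0.0209) and -0.61 ± 0.18 for MRPL16 (adjusted p = 0.0285). MRPL17 had log2 intensities of 11.12, 10.94 and 11.07 in KD1, 11.48, 11.68 and 11.43 in KD2, and 11.22, 11.22 and 11.34 in Luc. Its KD1 arrays lay below and its KD2 arrays above all Luc arrays, at -0.22 (adjusted p = 0.268) and 0.27 (adjusted p = 0.147), and KD1 differed from KD2 by -0.49 ± 0.12 (limma adjusted p = 0.0152). The calls of MRPL1 and MRPL16 were lost without KD1 replicate 1 or 3 or KD2 replicate 1 or 2 (adjusted p up to 0.0731 and 0.0954), and that of MRPL17 without KD1 replicate 2 or KD2 replicate 2 (up to 0.0612). MRPL16 was also not called with no detection filter (adjusted p = 0.0582), and with the deposited values the differences were -0.43 for MRPL1 and -0.33 for MRPL16.

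Set by subunit, the MRPL genes gave calls in both directions. The MRPS calls of each comparison lay on 1 side, but were only 1 with KD1, 2 with KD2 and 5 between the siRNAs. MRPS9 and MRPS15 gave both KD2 calls and recur in KD1 against KD2, which uses the same KD2 arrays. MRPS30, also called there, sits in the large subunit. A dimmer probe of MRPS21 was called higher with both siRNAs in a fit with every probe as a feature. So few calls cannot show a direction of the MRPS genes. With KD1 against Luc, 2 MRPL genes were higher and 2 lower of 48, and 0 MRPS genes were higher and 1 lower of 28. For KD2 against Luc the counts were 5 higher and 3 lower among MRPL genes, and 0 higher and 2 lower among MRPS genes. In KD1 against KD2, 3 MRPL genes were higher and 4 lower, while 5 MRPS genes were higher and 0 lower. At an unadjusted p under 0.05 in limma, the 1 tool run, the MRPS genes counted 1 higher and 2 lower with KD1, 0 higher and 6 lower with KD2, and 6 higher and 2 lower in KD1 against KD2. The share of all features called was 7.23% higher and 9.27% lower with KD1, 10.9% and 11.5% with KD2, and 13.3% and 14.1% in KD1 against KD2, and whether the subunits differ was not tested.

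In the main processing the median change of either subunit lay close to that of all features. For MRPL genes it was 0.03 with KD1, -0.004 with KD2 and -0.05 for KD1 against KD2. The last of these became 0.02 without KD1 replicate 1, and the KD2 value ranged from -0.04 to 0.04 as single arrays were left out. For MRPS genes it was 0.03 with KD1, -0.03 with KD2 and 0.10 for KD1 against KD2, where 18 of 28 genes had a positive value. The medians over all features were 0.005 with KD1, -0.001 with KD2 and 0.015 in KD1 against KD2. These directions depend on the scaling. With each array scaled to the median of all its probes the MRPL medians were -0.17 with KD1, -0.08 with KD2 and -0.18 in KD1 against KD2, the MRPS medians -0.14, -0.10 and -0.03, and those of all features -0.17, -0.07 and -0.08. With scaling to the median of the tested features both KD2 medians turned positive, at 0.05 for MRPL and 0.02 for MRPS genes, where all features stood at 0.07. The quartiles of the MRPL genes lay at -0.17 and 0.16 with KD1 and at -0.27 and 0.27 with KD2, and those of the MRPS genes at -0.07 and 0.20 with KD1 and at -0.24 and 0.14 with KD2.

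On single arrays the median of the 28 MRPS genes, relative to the mean of the Luc arrays, was 0.04, 0.05 and 0.06 in KD1, -0.02, -0.09 and -0.06 in KD2, and 0.07, -0.005 and -0.04 in Luc. The KD1 arrays lay above the KD2 arrays, and the Luc arrays spanned the KD1 values and part of the KD2 values. For the 48 MRPL genes the medians were -0.02, 0.06 and 0.07 in KD1, 0.12, -0.002 and -0.005 in KD2, and 0.05, -0.02 and -0.06 in Luc, and all groups overlapped. The MRPL median minus the MRPS median was -0.06, 0.01 and 0.02 in KD1, 0.14, 0.09 and 0.05 in KD2, and -0.03, -0.01 and -0.02 in Luc. The KD2 arrays lay above all others in that difference, but not once MRPS30 and MRPS18A were counted in the large subunit, when it was -0.06, 0.01 and 0.04 in KD1, 0.09, 0.05 and -0.005 in KD2, and -0.03, 0.01 and -0.02 in Luc, and the groups overlapped.

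**Figure D4:**
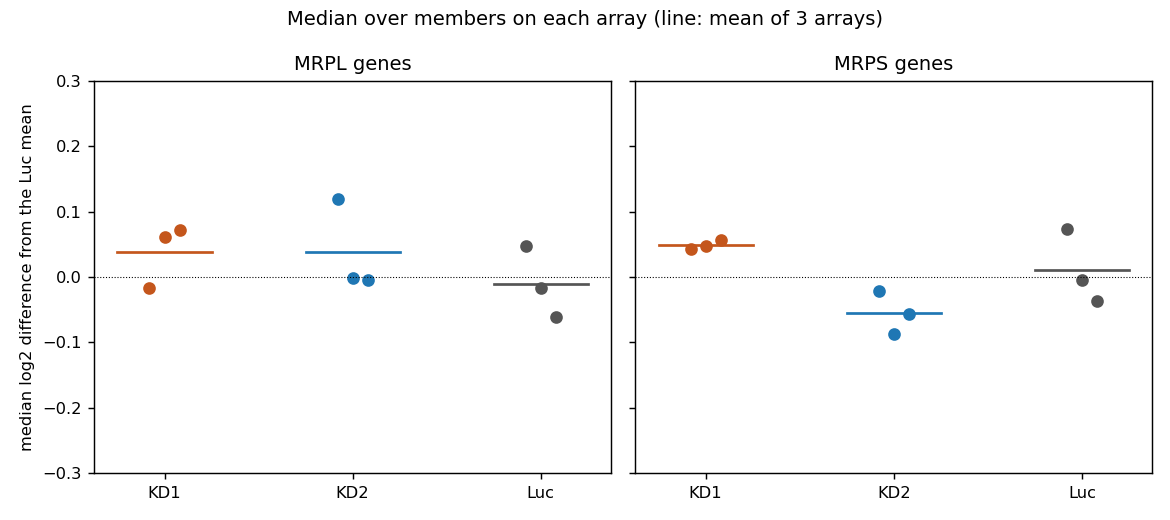
Median log2 difference from the Luc mean over the 48 MRPL genes (left) and the 28 MRPS genes (right) on each KD1, KD2 and Luc array, with the mean of 3 arrays as a line. All medians lie between -0.09 and 0.12, and the MRPS medians are lower on the KD2 arrays than on the KD1 arrays.

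Placing MRPS30 and MRPS18A in the large subunit, where the structure has them, gave 50 and 26 genes. The large subunit then had 4 genes higher and 4 lower in KD1 against KD2, with a median of -0.02. The small subunit had 4 higher and 0 lower, with a median of 0.07. Of all features 13.3% were higher and 14.1% lower there. Split by origin as listed here, 45 genes have a bacterial counterpart and 31 are mitochondria-specific. The list places MRPS18A and MRPS18B with the 31 and their namesake MRPS18C with the 45, so the split depends on such choices. With KD2 against Luc, 1 of the 45 was higher and 4 lower, and 4 of the 31 were higher and 1 lower. Of all features 10.9% were higher and 11.5% lower. With KD1 the 45 gave 1 higher and 2 lower and the 31 gave 1 and 1, where 7.23% and 9.27% of all features were called. In KD1 against KD2 they gave 5 and 3, and 3 and 1, where 13.3% and 14.1% were. Several of the KD2 calls, among them those of MRPL43 and MRPL50, were lost in settings given above. Whether the origins differ was not tested. Of the 10 mitochondria-specific proteins of the small subunit, 0 were called in any comparison in limma. Of all features 16.5%, 22.4% and 27.4% were called, and 10 genes are too few to set this class apart. At an unadjusted p under 0.05 in limma, 1 was higher and 1 lower with KD1. The counts were 0 and 1 with KD2, and 1 and 1 in KD1 against KD2.

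Of the members, 68 had a promoter in the RefSeq table, 41 MRPL and 27 MRPS. It was taken from 250 bases before to 50 after the first listed start of each gene. CCGGAAG was found on either strand in 28 of 68 (41.2%), where 14.2% of 15843 protein-coding genes held it, and AAGATGGC in 20 of 68 (29.4%), against 3.91%. GCGCATGCG was in 3 of 68 (4.41%), against 2.76%. By subunit, CCGGAAG was found in 16 of 41 MRPL promoters and 12 of 27 MRPS promoters, and AAGATGGC in 12 of 41 MRPL and 8 of 27 MRPS promoters. A match describes these letters and does not show binding, and 27 of 68 promoters held none of the 3.

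Other genes of mitochondrial translation were set beside the ribosomal proteins. Of 28 tested genes for the assembly of the mitochondrial ribosome, 6 were higher and 0 lower with KD1, 2 higher and 4 lower with KD2, and 5 higher and 0 lower in KD1 against KD2. The shares called were 21.4%, 21.4% and 17.9%, where 16.5%, 22.4% and 27.4% of all features were called. SPG7, a subunit of the membrane protease that matures a large-subunit protein, rose by 0.78 with KD1 and 0.92 with KD2, and FASTKD2, which binds mitochondrial RNA, by 0.64 and 0.60. MPV17L2, DHX30, METTL15 and NDUFAB1 rose with KD1 by 0.51 to 0.67. GTPBP10, a GTPase of large-subunit assembly, fell by 0.99 with KD2 but was dim and detected on only 7 arrays. PTCD1 fell by 0.68 with KD2, and TFB1M and NSUN4, which methylate mitochondrial ribosomal RNA, by 0.78 and 0.67. The median of the list was 0.01 with KD1, -0.21 with KD2 and 0.22 in KD1 against KD2. At an unadjusted p under 0.05 in limma, 2 assembly genes were lower with KD1 and 1 in KD1 against KD2.

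Among 16 translation factors, 2 were higher and 0 lower with KD1, 1 higher and 3 lower with KD2, and 6 higher and 0 lower in KD1 against KD2. The shares called were 12.5%, 25% and 37.5%, beside the same 16.5%, 22.4% and 27.4% of all features. LRPPRC, which stabilises mitochondrial messages, rose by 1.12 with KD1 and 0.46 with KD2, and TUFM, the mitochondrial elongation factor Tu, by 0.40 with KD1. MTRF1L, a release factor, fell by 0.95 with KD2, GUF1 by 0.74 and GFM1, the elongation factor G, by 0.54. At an unadjusted p under 0.05 in limma, 0 factors were lower with KD1 and 1 in KD1 against KD2. Of 18 genes of mitochondrial transcription and genome upkeep, 1 was called with KD1, 2 with KD2 and 2 in KD1 against KD2. The shares called were 5.56%, 11.1% and 11.1%, where 16.5%, 22.4% and 27.4% of all features were called. TFAM, which packages the mitochondrial genome and starts its transcription, was lower with both siRNAs. It stood at -0.80 with KD1 (limma adjusted p = 0.00611) and -0.78 with KD2 (adjusted p = 0.00512). TOP1MT was higher with KD2, at 0.59, and in KD1 against KD2 SUPV3L1 was higher at 0.66 and FASTKD5 lower at -0.50. Of 8 tested regulators of mitochondrial biogenesis, PPRC1 was higher with KD1 (0.50) and MYC lower with KD2 (-0.70), and in KD1 against KD2 stood ESRRA at 0.64, MYC at 0.54 and PPRC1 at 0.43, all called higher. PPARGC1B was also called higher there, at 0.65 (limma adjusted p = 0.00654), but was detected on only 3 arrays. Counting it, the shares called in the 3 comparisons were 12.5%, 12.5% and 50%, beside 16.5%, 22.4% and 27.4% of all features. NRF1, whose sites are known from promoters of mitochondrial genes, was detected on 0 arrays.

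DAP3, CHCHD1 and PTCD3, proteins of the mitochondrial small subunit under other names, had 0 calls in limma, and 0 at an unadjusted p under 0.05, with log2 changes from -0.29 to 0.24 against Luc. The 68 tested cytosolic ribosomal protein genes, the counterpart set outside the organelle, gave 2 higher and 1 lower with KD1 (4.41%), 0 higher and 14 lower with KD2 (20.6%), and 13 higher and 0 lower in KD1 against KD2 (19.1%), where 16.5%, 22.4% and 27.4% of all features were called. At an unadjusted p under 0.05 in limma the counts of 0 became 2 with KD2 and 1 in KD1 against KD2. Their median was -0.01 with KD1, -0.17 with KD2 and 0.14 in KD1 against KD2, where the 76 mitochondrial members had 0.03, -0.02 and 0.05, and no test of these differences was made.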

How the data were processed

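RNA from 9 samples was hybridised to Illumina bead arrays after biotin labelling of cRNA, per the labels. The authors deposited a signal intensity per probe and array, neither background-corrected nor normalized as its values show, and a detection p-value beside it, per the file headers. The deposited series values are near a log2 scale and quantile-normalized, as the values show, and the submitters' processing notes name lumi, whose version is not given in the sources used here.

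With limma 3.58.1 in R 4.3.3, the neqc function estimated the background from the detection p-values, and log2 values were taken after an offset of 16 and quantile normalization. Each symbol was represented by its brightest probe, chosen over all arrays. Tests covered the 13076 of 39555 features detected (p under 0.05) on 3 or more arrays. Group means were estimated in 1 limma fit of the 9 arrays (lmFit, eBayes; 6 residual and 10.2 total degrees of freedom). Two-sided p-values were adjusted by Benjamini-Hochberg across every feature tested, and a call means an adjusted p under 0.05. Permuting 3 and 3 arrays exactly allows no two-sided p under 0.1, so this was not used for single genes. The number of arrays limits the precision.

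Members and gene lists were chosen with earlier results of these data known. Per-array values are given for members called with both siRNAs and for the 5 higher and 5 lower called members with the largest change in each comparison. Promoters and pseudogene names come from RefSeq tables of GRCh38.p14. The procedure was also run on simulated data with independent normal noise. Its passing mark was set for a change larger than any member showed, so it does not bear on the calls here. Alternatives covered the background, scaling, detection filter, probe choice, arrays in the fit, a replicate block and each array left out. The titles number the arrays but do not say whether equal numbers mark a pair, and the main fit used no pairing. Of 9 same-numbered pairs across groups, 1 had deviations correlated above 0.1, with a range of -0.0237 to 0.107. For pairs of different number the range was -0.0901 to 0.0644. These correlations cannot show how the arrays were prepared.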

Additional observations from a re-analysis of the deposited data

How the results depend on the processing

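Leaving out 1 array at a time gave 1 to 4 members called for KD1 against Luc, 6 to 10 for KD2 against Luc, 6 to 13 for KD1 against KD2 and 1 to 3 in the same direction with both siRNAs. The median change of the MRPL genes then ranged from 0.007 to 0.073 for KD1 against Luc, from -0.042 to 0.041 for KD2 against Luc and from -0.073 to 0.017 for KD1 against KD2, and that of the MRPS genes from 0.018 to 0.07, from -0.059 to -0.008 and from 0.072 to 0.122. Without background correction 9, 26 and 25 members were called for KD1 against Luc, KD2 against Luc and KD1 against KD2, where 22.4%, 28.8% and 31.9% of features were. The deposited values gave 13, 24 and 25 members. The 5, 10 and 12 members of the main processing were all among those of both settings. The cause of the higher counts was not tested. Median scaling over all probes gave 11 members for KD1 against Luc (14.5%), where 20.8% of all features were called. Its MRPL medians were -0.165, -0.077 and -0.179 and its MRPS medians -0.137, -0.105 and -0.026, where the medians of all features moved to -0.167, -0.073 and -0.079. Of the features called, 15.7%, 35.7% and 32.9% were then higher, against 43.8%, 48.6% and 48.5% in the main processing. Median scaling over the tested features, chosen after the data were seen, gave MRPL medians of 0.1 with KD1 and 0.049 with KD2 and MRPS medians of 0.135 and 0.022, where all features stood at 0.112 and 0.071 and 59.2% and 57.2% of those called were higher. With no detection filter, where 39555 features share the adjustment, 6 members (7.89%) were called for KD2 against Luc, and 5.75% of features. For KD1 against Luc the shares were 5.26% and 3.9%, and for KD1 against KD2 10.5% and 7.05%. In this setting the members' share lay above that of all features, a difference that was not tested. A setting added after the data were seen took every probe as a feature. It called 17 of 105 probes for KD2 against Luc, where 21.4% of all tested probes were called. Using the mean of detected probes gave 2 members with both siRNAs, and the change of MRPL43 with KD2 reversed to -0.004. With the replicate block 4, 9 and 12 members were called, and 1977, 2793 and 3376 features, which moved no count by over 1.5 times but ended the calls of MRPL55 with KD1 and MRPL43 with KD2. Under 9 settings other than leaving out an array, 216 of 243 values of called members kept their direction and call, 26 lost the call and 1 reversed. With 1 array left out, 173 of 243 kept both and 70 lost the call. The calls that held under all of these were MRPL52 with KD1, MRPL51, MRPL52, MRPL55, MRPL9 and MRPS9 with KD2, and MRPL40, MRPL44, MRPL9, MRPS10, MRPS15 and MRPS9 between the siRNAs. Brightness over background limits dim probes, such as that of MRPL57, whose intervals are the wider ones.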

Other observations

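Of the 76 genes, 27 had more than 1 probe, and some dimmer probes passed the test where the brightest probe of the gene did not, in a fit with every probe as a feature that was added after the data were seen. The dimmer probe of MRPS21 stood at 0.55 with KD1 (limma adjusted p = 0.0385) and 0.68 with KD2 (adjusted p = 0.0112), and that of MRPL22 at 0.64 with KD2 (adjusted p = 0.0131). The dimmer probe of MRPL21 stood at -0.53 with KD2 (limma adjusted p = 0.0303) and that of MRPL10 at 0.55 with KD2 (adjusted p = 0.0485). For MRPS33 the dimmer probe stood at -0.41 with KD2 (limma adjusted p = 0.0346) and at 0.70 in KD1 against KD2 (adjusted p = 0.00212). A second probe of MRPL45 gave -0.57 with KD2 (limma adjusted p = 0.0112), where the brightest probe missed the threshold in the same fit at -0.39 (adjusted p = 0.0635). These genes were named after their values were seen.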
